A study of Mus musculus with 4 samples.

Results

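Respiratory complex I (NADH:ubiquinone oxidoreductase) is the entry point of the mitochondrial electron transport chain. The genes described here were all those whose symbol was Ndufa, Ndufb, Ndufc, Ndufs or Ndufv followed by a number, together with Ndufab1. The rule matched 37 of the 17550 genes with reads in any library. All 37 were at 1 RPKM (assigned reads divided by gene length and by the library's total) or more in every library. The subunit gene Ndufb1 and the 7 subunit genes carried by mitochondrial DNA were not analysed here.

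The study sequenced total RNA of mouse left ventricle 3 days after an experimental myocardial infarction, from C57BL/6 mice aged 8 weeks. There were 4 groups, made of 2 genotypes, wild type and Neil3-/-, each with a piece of the infarct and a piece of ventricle outside it. NEIL3 is a DNA glycosylase, an enzyme of base excision repair. Every group had been through the infarction, so the non-infarcted tissue came from infarcted hearts and no unoperated group was analysed here. Each group had 1 library, which by its labels could be a single mouse or a pool of mice.

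With 1 library per group no difference has a replicate check, and no p-value is given. The intervals below are exact Clopper-Pearson 95% intervals of the read numbers of the 2 libraries compared, and they cover counting error only. The libraries held 14.3 M to 18.2 M assigned reads (M: 1000000 reads). The Neil3 gene had 62 reads in wild-type non-infarcted, 155 in wild-type infarcted, 391 in Neil3-/- non-infarcted and 763 in Neil3-/- infarcted tissue. Reads over the whole gene were thus higher, not lower, in the libraries labelled Neil3-/-, and because which part of the gene was deleted is unknown from the labels, these reads do not check the genotype. Below, Neil3-/- therefore stands for the libraries that carry this label, and every direction drawn from it is one between libraries so labelled.

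Complex I takes electrons from NADH and passes them through a flavin and a chain of iron-sulfur clusters to ubiquinone, while its membrane arm pumps protons out of the matrix. Its catalytic core is built from nuclear-encoded subunits in the matrix arm and from mitochondrially encoded subunits in the membrane arm, and many accessory subunits surround this core. Cardiomyocytes are packed with mitochondria, and heart muscle is among the tissues richest in respiratory chain transcripts. In this left ventricle the cardiomyocyte contractile genes were the most abundant of the cell type marker lists, with 14 of 14 genes found and a summed level of 42689 RPKM in the wild-type non-infarcted library.

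Promoter windows are shown for 4 members because they stand at the ends of the patterns described below. By the mean log2 ratio over both genotypes, Ndufb10 had the lowest infarct ratio of the members and Ndufa7 one of the highest. Ndufs5 had the lowest level, and Ndufb8 held 3 of the motifs searched, as many as Ndufb6 and more than any other window found. For Ndufa7 the first of its 2 windows is shown. Each window runs 5′ to 3′ on the gene's strand from 250 bases before to 50 bases after a RefSeq transcript start, in build GRCm38.p6. Capitals mark matches to the 5 motifs searched.
Ndufb10 (chr17:24724374-24724673, minus strand): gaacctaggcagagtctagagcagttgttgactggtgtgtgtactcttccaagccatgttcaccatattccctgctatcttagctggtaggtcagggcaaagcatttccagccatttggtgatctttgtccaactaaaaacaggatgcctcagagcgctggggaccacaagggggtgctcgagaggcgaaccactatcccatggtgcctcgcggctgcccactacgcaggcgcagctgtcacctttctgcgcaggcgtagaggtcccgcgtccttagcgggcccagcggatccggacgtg
Ndufa7 (chr17:33824322-33824621, plus strand): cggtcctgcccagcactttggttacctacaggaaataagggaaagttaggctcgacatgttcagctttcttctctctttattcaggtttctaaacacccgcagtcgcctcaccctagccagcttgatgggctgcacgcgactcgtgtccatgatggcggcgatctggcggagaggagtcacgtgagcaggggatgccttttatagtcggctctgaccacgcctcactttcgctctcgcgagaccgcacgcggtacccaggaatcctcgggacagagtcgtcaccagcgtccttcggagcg
Ndufs5 (chr4:123718137-123718436, minus strand): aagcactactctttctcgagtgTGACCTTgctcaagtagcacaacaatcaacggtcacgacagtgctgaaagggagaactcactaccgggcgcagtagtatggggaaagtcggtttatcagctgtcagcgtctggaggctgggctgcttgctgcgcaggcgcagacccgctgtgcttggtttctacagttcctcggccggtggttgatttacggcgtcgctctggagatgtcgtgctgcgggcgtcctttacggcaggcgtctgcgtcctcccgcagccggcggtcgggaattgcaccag
Ndufb8 (chr19:44555393-44555692, minus strand): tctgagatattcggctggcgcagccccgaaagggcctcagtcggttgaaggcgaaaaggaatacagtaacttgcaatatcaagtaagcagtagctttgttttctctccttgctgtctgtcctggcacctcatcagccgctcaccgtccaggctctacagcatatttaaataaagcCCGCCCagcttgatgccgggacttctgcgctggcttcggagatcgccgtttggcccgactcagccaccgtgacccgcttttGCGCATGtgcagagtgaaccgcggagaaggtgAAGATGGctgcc

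The motifs were AAGGTCA (read by the estrogen-related receptors), CCGGAAG (ETS factors such as GABP), GCGCATG (part of the NRF1 site), AAGATGG (part of the YY1 site) and GGGCGG (the GC box), each searched on both strands, and none contains another. Windows were found for 33 of the 37 members, and for 27025 genes in all. GGGCGG occurred in 15 of the 33 members (45.5%) and in 38.2% of all genes. AAGATGG occurred in 7 members (21.2%) and in 7.28% of all genes, and GCGCATG in 5 members (15.2%) and in 4.41% of all genes. The YY1 and NRF1 letters were thus the pair with the widest gap between members and all genes. CCGGAAG occurred in 4 members (12.1% against 9.93%) and AAGGTCA in 3 members, Ndufb2, Ndufb4 and Ndufs5 (9.09% against 5.38%).

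In the windows printed above, Ndufb8 holds GCGCATG and AAGATGG on the gene's strand and GGGCGG on the opposite strand, read there as CCGCCC. The Ndufs5 window holds AAGGTCA on the opposite strand. The windows of Ndufb10 and Ndufa7, which lie near opposite ends of the mean infarct ratios, hold none of the 5 motifs, and 9 of the 35 member windows hold none. The members' windows were richer in G and C, with a median of 59.0% against 52.7% over all windows. A match is a description of the letters and no evidence of binding, and its part in any level below was not tested.

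The subunit transcripts made up 0.704% of all assigned reads in wild-type non-infarcted tissue (interval 0.6996 to 0.7081%) and 0.370% in wild-type infarcted tissue (0.367 to 0.373%). In the libraries labelled Neil3-/- they made up 0.715% in non-infarcted (0.711 to 0.720%) and 0.303% in infarcted tissue (0.3004 to 0.3054%). Complex I transcripts thus took up about the same share of both non-infarcted libraries and the smallest share of the infarcted library labelled Neil3-/-. The median member was at 224 RPKM, 110 RPKM, 218 RPKM and 87.4 RPKM in the same order of libraries.

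**Figure D1:**
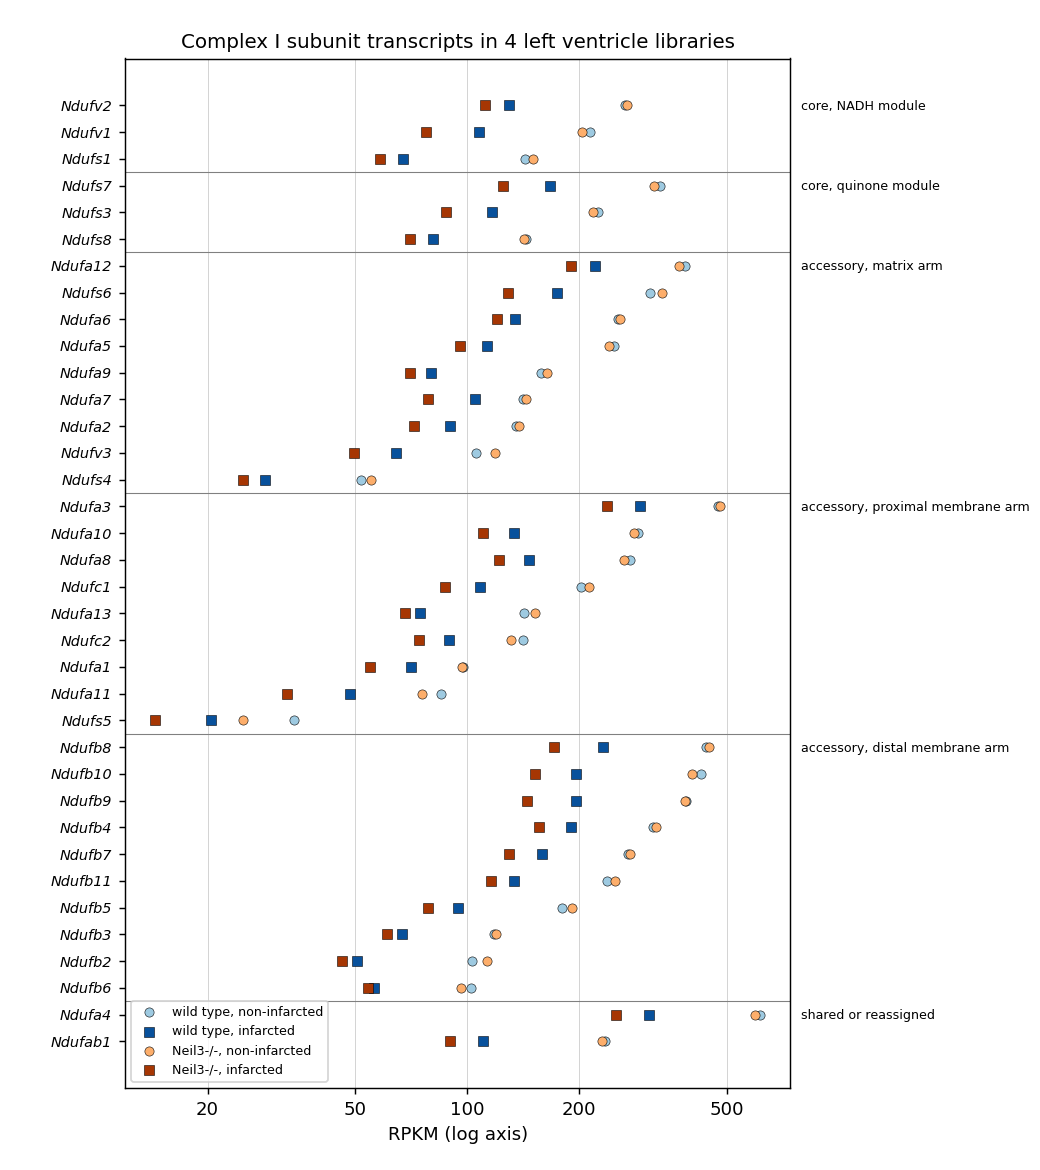
RPKM of 36 complex I subunit genes (log axis) in the 4 libraries, grouped by the subunit's place in the complex; circles are non-infarcted and squares infarcted tissue. For every subunit plotted both squares lie to the left of both circles, and Ndufs5, Ndufs4 and Ndufa11 lie lowest in all 4 libraries.

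Levels spread widely among subunits of one complex. The highest member was 18 times the lowest in the wild-type non-infarcted library and 17.4 times in the infarcted library labelled Neil3-/-. Ndufa4, which was first described in complex I and later assigned to cytochrome c oxidase, was the most abundant. It was at 613 RPKM outside and 309 RPKM inside the infarct in wild type, and at 595 and 252 RPKM in Neil3-/-. Ndufa3, a small subunit of the membrane arm, followed at 473 and 292 RPKM in wild type and 479 and 238 RPKM in Neil3-/-. Ndufb8, of the distal membrane arm, was at 439 and 231 RPKM and at 446 and 171 RPKM. The same 3 genes led the non-infarcted libraries and the wild-type infarcted library, while Ndufa12 (189 RPKM) stood above Ndufb8 in the infarcted library labelled Neil3-/-.

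At the other end, Ndufs5, a subunit with paired cysteines that faces the intermembrane space, was at 34.1 and 20.5 RPKM in wild type and at 24.9 and 14.4 RPKM in Neil3-/-. Ndufs4, an accessory subunit of the NADH-oxidising end whose loss causes Leigh syndrome, was at 51.9 and 28.6 RPKM in wild type and 55.1 and 24.9 RPKM in Neil3-/-. Ndufa11, a membrane subunit, was at 84.9 and 48.3 RPKM in wild type and 75.4 and 32.7 RPKM in Neil3-/-. These 3 held the lowest ranks in every library. The order of members was nearly the same throughout, with Spearman's rho between libraries of 0.969 to 0.993 over the 37 genes. That value describes levels of the same genes with the same lengths in each library and is no test.

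Reads covered a median of 97.9 to 98.5% of a member's listed length, so most members were covered almost whole. The exceptions below 90% in the wild-type non-infarcted library were Ndufs5 (35.7%), Ndufa13 (43.8%), Ndufa11 (69.2%), Ndufv2 (73.0%) and Ndufa1 (75.6%). A level per kilobase of a gene covered only in part depends on the length listed for it, so the low RPKM of Ndufs5 and Ndufa11 is a value per listed length. Ndufs5 and Ndufa13 also share 31.1% and 28.5% of their transcript 50-mers with other genes in the GENCODE M21 transcripts. Of the 37 members, 21 share some 50-mer with another gene and 10 share over 10% (Ndufa12, Ndufa13, Ndufab1, Ndufb4, Ndufb5, Ndufb6, Ndufb9, Ndufb11, Ndufs3 and Ndufs5), for example Ndufb4 with processed pseudogenes and Ndufb6 with Smim27, so their unique reads are less certain.

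Every complex I subunit transcript was lower in infarcted than in non-infarcted tissue, in the wild-type libraries and in those labelled Neil3-/- alike. Summed over the 37 members, the share of reads in infarcted tissue was 0.526 of that in non-infarcted tissue in wild type (0.521 to 0.531) and 0.423 in the libraries labelled Neil3-/- (0.419 to 0.428). The interval of the ratio lay below 1 for 37 of 37 members in wild type, where 22% of 12515 compared genes had such an interval. It did so for 37 of 37 in the libraries labelled Neil3-/-, where 24.1% of 12563 genes did. For all 37, both infarcted libraries lay below both non-infarcted libraries, as they did for 25.1% of all genes.

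The sizes were moderate and close together. Members were 1.34-fold to 2.20-fold lower in wild type and 1.72-fold to 2.67-fold lower in Neil3-/-, with median folds of 1.86 and 2.35. Counted on the log2(RPKM + 1) scale, 7 of 37 members were at least 2-fold lower in wild type (3.6% of all genes) and 29 of 37 in Neil3-/- (6.07% of all genes). The 7 (Ndufb10, Ndufa5, Ndufa10, Ndufs1, Ndufab1, Ndufv2 and Ndufb2) were all among the 29, and 8 members passed in neither. Many wild-type ratios lay just short of 2-fold, so that count moves with the scaling. It was 28 under edgeR's TMM scaling (6.14% of all genes) and 29 under DESeq2's median-ratio scaling (6.24%), which shifted the median of all genes by -0.19 and -0.20 on the log2 scale. At 1.5-fold, 35 members in wild type (9.56% of all genes) and 37 in Neil3-/- (12.4%) were lower.

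**Figure D2:**
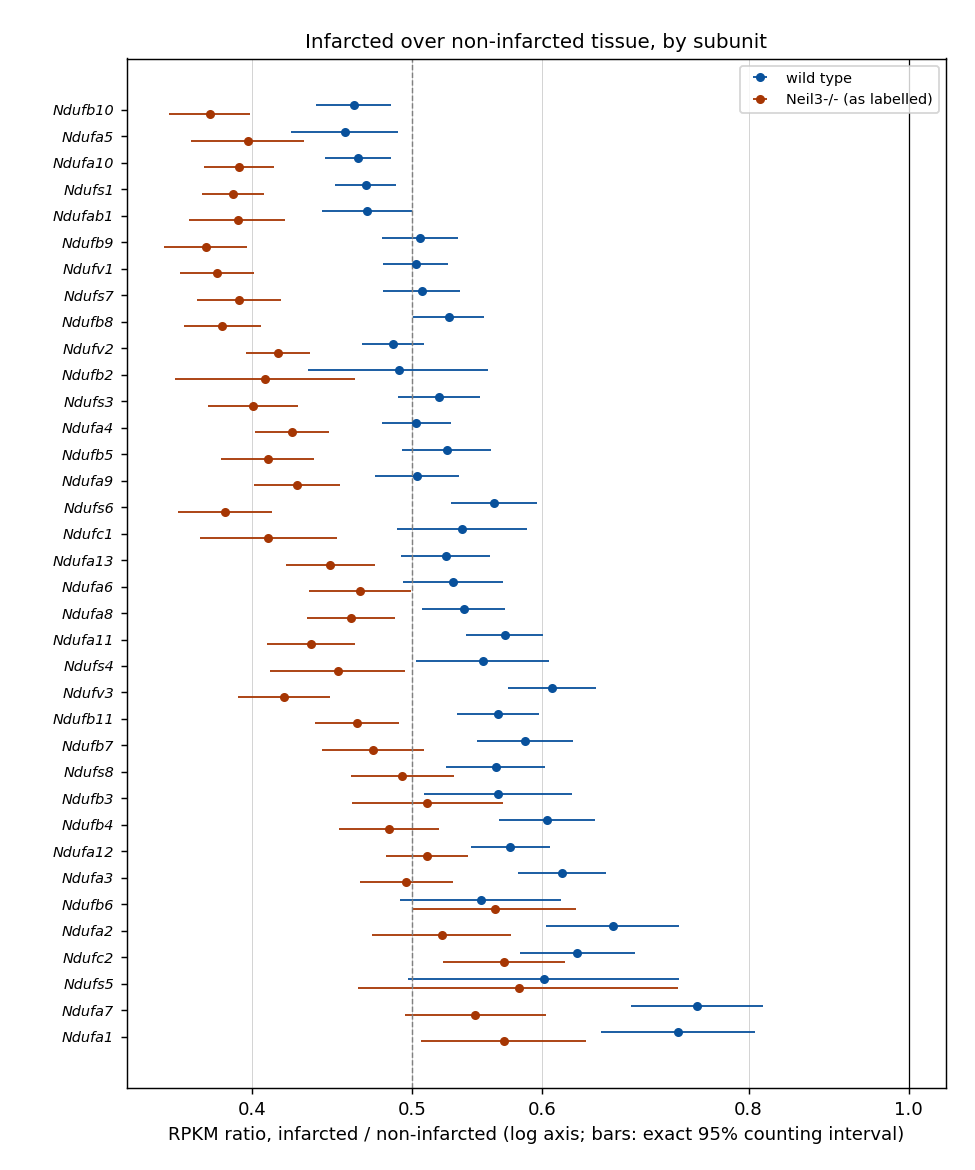
RPKM ratio of infarcted to non-infarcted tissue for 36 subunits (log axis), in wild type (blue) and the libraries labelled Neil3-/- (red-brown); bars are exact 95% counting intervals, the dashed line marks 0.5 and the solid line 1. All points and bars lie left of 1, and the Neil3-/- point lies left of the wild-type point for every subunit plotted except Ndufb6.

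The core subunits that carry out electron transfer were on the lower side of this range. The 7 had a median 1.99-fold lower level in wild-type and a 2.55-fold lower level in Neil3-/- infarcted tissue, against 1.81-fold and 2.23-fold for the 30 other subunits. Their log2(RPKM + 1) ratios overlapped those of the others, and the difference between the 2 sets was not tested. The core genes were also long, with listed lengths of 758 to 2936 bases. The 17 members over 700 bases had median log2(RPKM + 1) ratios of -0.94 in wild type and -1.26 in Neil3-/-. The 20 shorter members, all accessory, had medians of -0.82 and -1.06. The part of length in the core difference was not tested.

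In the NADH-oxidising module, Ndufv1, which binds NADH and the flavin, was at 213 and 107 RPKM in wild-type and 203 and 77.3 RPKM in Neil3-/- non-infarcted and infarcted tissue. It was thus 1.99-fold lower (1.90 to 2.08) and 2.62-fold lower (2.49 to 2.76) in the infarct. Ndufv2, an iron-sulfur subunit beside it, was at 265 and 129 RPKM and at 269 and 112 RPKM, or 2.05-fold (1.97 to 2.14) and 2.41-fold lower (2.30 to 2.52). Ndufs1, the largest subunit and the carrier of several iron-sulfur clusters, was the lowest of the core genes in both infarcted libraries. It was at 143 and 66.9 RPKM in wild type and 150 and 58.3 RPKM in Neil3-/-, which is 2.13-fold (2.05 to 2.22) and 2.57-fold lower (2.46 to 2.68).

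The quinone module hands the electrons to ubiquinone. Ndufs7, which holds the last iron-sulfur cluster of the chain, was at 330 and 167 RPKM in wild type and at 317 and 125 RPKM in Neil3-/-, or 1.97-fold (1.87 to 2.08) and 2.55-fold lower (2.40 to 2.70). It lay near the 2-fold mark in wild type and beyond it in Neil3-/-. Ndufs3 was at 224 and 116 RPKM and at 218 and 87.4 RPKM, or 1.92-fold (1.82 to 2.04) and 2.5-fold lower (2.35 to 2.66). Ndufs8, another iron-sulfur subunit, was at 144 and 80.7 RPKM and at 142 and 70.2 RPKM. Its 1.78-fold (1.66 to 1.91) and 2.03-fold (1.89 to 2.18) differences were the smallest of the core.

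By the mean log2(RPKM + 1) ratio of both genotypes, the largest differences were in accessory subunits of 3 different parts of the complex. Ndufb10, of the distal membrane arm, was at 425 and 196 RPKM in wild type and at 403 and 152 RPKM in Neil3-/-, or 2.17-fold (2.06 to 2.28) and 2.65-fold lower (2.51 to 2.81). Ndufa5, of the matrix arm, was at 248 and 113 RPKM and at 241 and 95.8 RPKM, or 2.20-fold (2.04 to 2.37) and 2.51-fold lower (2.32 to 2.72). Ndufa10, a membrane-arm subunit with a nucleoside kinase fold, was at 287 and 133 RPKM and at 280 and 110 RPKM, or 2.15-fold (2.06 to 2.26) and 2.54-fold lower (2.42 to 2.67). No single arm of the complex therefore held the lowest ratios.

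By the same mean, the smallest differences were also spread over both arms. Ndufa1, a small X-linked subunit needed for assembly of the complex, was at 97.1 and 70.4 RPKM in wild type and at 96.4 and 54.8 RPKM in Neil3-/-, or 1.38-fold (1.24 to 1.54) and 1.76-fold lower (1.57 to 1.97). Ndufa7, of the matrix arm, was at 141 and 105 RPKM and at 144 and 78.5 RPKM, or 1.34-fold (1.23 to 1.47) and 1.83-fold lower (1.66 to 2.02). Ndufs5 was 1.66-fold (1.38 to 2.01) and 1.72-fold lower (1.38 to 2.15), with the widest intervals of all members, and it rested on 142 to 274 reads. Its place here rests on its own reads alone. With the reads of a near-identical pseudogene, described below, it was 1.67-fold and 1.96-fold lower. Ndufc2, at 1.59-fold and 1.76-fold, then had the smaller difference. The wild-type intervals of Ndufa1 and Ndufa7 did not reach those of Ndufb10, Ndufa5 or Ndufa10. These genes were picked as the ends of the order by the same ratios, so this gap is a description only. Whether replicate hearts would keep this order was not tested.

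The other matrix-arm accessory subunits lay between these ends, and folds are given for wild type and then Neil3-/-. Ndufa9, which has the fold of a short-chain dehydrogenase and binds NADPH, was 1.98-fold and 2.35-fold lower. Ndufa6, an LYR protein that docks an acyl carrier protein, was 1.89-fold and 2.15-fold lower, and Ndufs4 1.81-fold and 2.22-fold lower. The zinc-binding Ndufs6 was 1.78-fold and 2.59-fold lower, and Ndufa12 was 1.74-fold and 1.96-fold lower. Ndufv3, a small subunit beside the flavin site, was 1.64-fold and 2.39-fold lower, and Ndufa2, with a thioredoxin-like fold, 1.51-fold and 1.92-fold lower. Of the matrix-arm accessory subunits, Ndufs6 and Ndufv3 had the lowest infarct ratio in Neil3-/- relative to that in wild type, at 0.687 and 0.688. Ndufa7 followed at 0.734.

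In the proximal membrane arm, Ndufa13, also known as GRIM-19, was 1.91-fold and 2.24-fold lower, and Ndufa8, which faces the intermembrane space, 1.86-fold and 2.18-fold lower. The small membrane subunits Ndufc1 and Ndufc2 were 1.86-fold and 2.44-fold lower and 1.59-fold and 1.76-fold lower. Ndufa11 was 1.76-fold and 2.30-fold lower, and Ndufa3 1.62-fold and 2.01-fold lower. In the distal membrane arm, Ndufb2 was 2.04-fold and 2.45-fold lower, Ndufb9, another LYR protein, 1.98-fold and 2.67-fold lower, and Ndufb8 1.90-fold and 2.60-fold lower. Ndufb5 was 1.90-fold and 2.44-fold lower, Ndufb6 1.82-fold and 1.78-fold lower, and Ndufb3 1.77-fold and 1.96-fold lower. Ndufb11, which is X-linked like Ndufa1, was 1.77-fold and 2.16-fold lower, Ndufb7, of the intermembrane space side, 1.71-fold and 2.11-fold lower, and Ndufb4 1.66-fold and 2.06-fold lower. The medians by region were alike, at 1.78-fold and 2.22-fold for the matrix arm, 1.76-fold and 2.18-fold for the proximal and 1.86-fold and 2.30-fold for the distal membrane arm.

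Ndufab1 and Ndufa4 have roles outside complex I. Ndufab1, the mitochondrial acyl carrier protein, was at 235 and 110 RPKM in wild type and at 230 and 90.04 RPKM in Neil3-/-, or 2.13-fold (2.0 to 2.27) and 2.55-fold lower (2.39 to 2.73). Ndufa4 was 1.99-fold (1.89 to 2.09) and 2.36-fold lower (2.25 to 2.49). Both lay within the range of the other members. The paralog Ndufa4l2, which hypoxia induces in many cells, went the other way. It was at 22.9 and 37.4 RPKM in wild type and at 19.9 and 28.7 RPKM in Neil3-/- non-infarcted and infarcted tissue, with log2(RPKM + 1) ratios of 0.69 and 0.51.

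The members' log2(RPKM + 1) infarct ratios in wild type and in Neil3-/- ran together, with Pearson's r of 0.792 and Spearman's rho of 0.794 over the 37 genes. The pairs of libraries share no library, but they share gene lengths and the authors' counting, and the value is a description. Infarct ratios were lower for longer genes, with a Spearman's rho against listed length of -0.38 in wild type and -0.44 in Neil3-/-. The same measure was -0.31 in both for the genes of complexes II to V and -0.08 and 0.01 over all genes. Gene length thus moved with the ratio among respiratory chain genes, and its part in the order of members was not tested.

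Set beside other gene lists, complex I sat with the rest of the respiratory chain. The median log2(RPKM + 1) infarct ratio of the members was -0.89 in wild type and -1.22 in Neil3-/-, while over all compared genes it was 0.21 and 0.24. For 42 genes of complexes II to V (succinate dehydrogenase, cytochrome bc1, cytochrome c oxidase and ATP synthase) it was -0.90 and -1.21. Summed RPKM of complex I was 0.364 of that of complexes II to V outside the infarct and 0.368 inside it in wild type, and 0.361 and 0.367 in Neil3-/-. The balance between complex I and the other complexes thus moved little between libraries while both sums were lower in infarcted tissue.

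**Figure D3:**
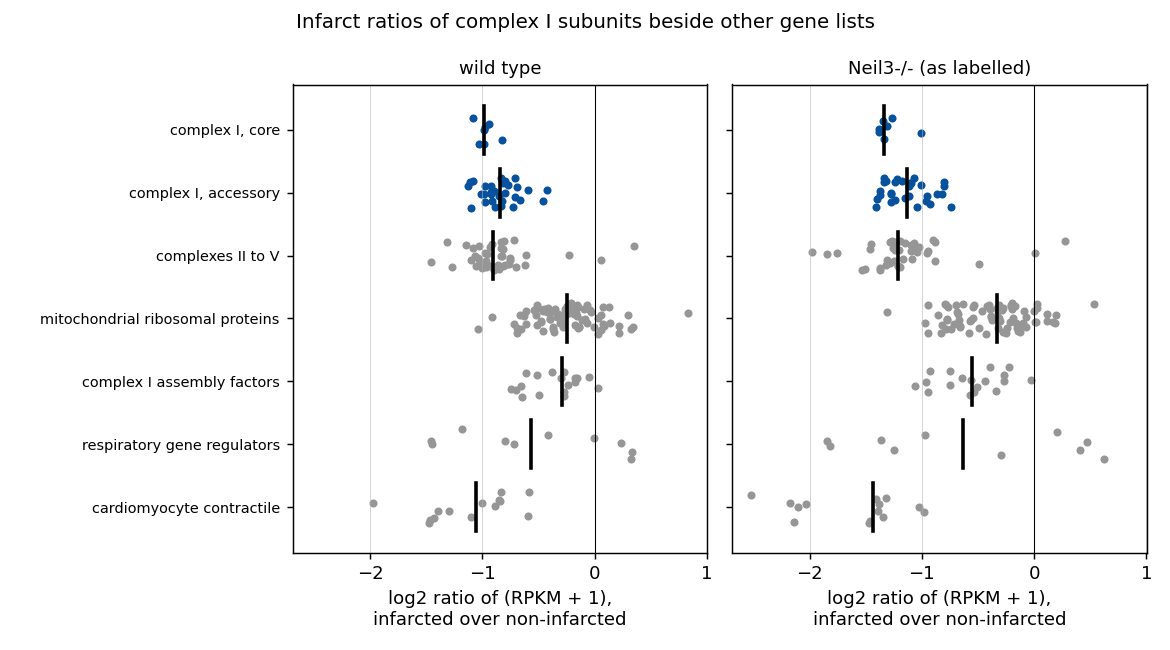
Log2 ratio of (RPKM + 1), infarcted over non-infarcted tissue, for each gene of 7 lists, in wild type (left panel) and in the libraries labelled Neil3-/- (right panel); each point is 1 gene, black bars are list medians, and vertical scatter only separates points. Complex I genes (blue) lie around the same median as complexes II to V, below the mitochondrial ribosomal proteins and assembly factors and above the contractile genes.

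Within complexes II to V the lowest ratios belonged to the muscle isoforms of cytochrome c oxidase. Cox7a1 was 2.42-fold and 3.96-fold lower, Cox8b 2.75-fold and 3.60-fold lower and Cox6a2 2.49-fold and 3.37-fold lower in wild type and Neil3-/-. Atp5g1, which encodes the c-ring of ATP synthase, was 2.22-fold and 2.90-fold lower. No member of complex I reached those of the 3 oxidase genes in Neil3-/-. The counterpart isoforms Cox6a1 and Cox8a, chosen after their values were seen, had log2(RPKM + 1) ratios of 0.35 and 0.27 and of 0.06 and 0.01. Cox7a2, the counterpart of Cox7a1, was lower in the infarct too, with ratios of -0.61 and -0.90.

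Other mitochondrial genes were nearer to their non-infarcted levels. The 76 genes of mitochondrial ribosomal proteins, which serve translation inside the organelle, had median log2(RPKM + 1) ratios of -0.25 and -0.33. The 18 complex I assembly factors found, which help build the complex but are not part of it, had medians of -0.29 and -0.55. Among them Dmac2 was 1.64-fold and 2.22-fold lower, Ndufaf1 1.73-fold and 2.03-fold lower, Foxred1 1.60-fold and 1.97-fold lower, and Ecsit 1.44-fold and 1.96-fold lower. Summed complex I RPKM was 2.73 and 1.80 times that of the mitochondrial ribosomal proteins in wild-type and 2.71 and 1.60 times in Neil3-/- non-infarcted and infarcted tissue. Structural subunits of complex I were therefore lower in the infarct relative to these genes as well.

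Of 10 regulators of respiratory genes, 6 had an interval of the RPKM ratio below 1 in each genotype, while 3 in wild type and 4 in Neil3-/- had one above 1. Of all compared genes, 22% and 24.1% had an interval below 1. An interval above 1 was found for 6488 of 12515 genes in wild type and 6729 of 12563 in Neil3-/-. Ppargc1a, the coactivator PGC-1α that drives mitochondrial gene expression, was at 21.5 and 7.21 RPKM in wild-type and at 22.8 and 5.63 RPKM in Neil3-/- non-infarcted and infarcted tissue. Ppara, a nuclear receptor for fatty acid oxidation genes, was 3.10-fold and 4.35-fold lower, the estrogen-related receptor Esrrg 2.58-fold and 3.02-fold lower, and Ppargc1b 1.81-fold and 2.64-fold lower. These 4 had the largest ratios of the list in either direction. Gabpb1, Nrf1 and Yy1 lay on the other side in both genotypes, and site letters of their factors were searched above. Their log2(RPKM + 1) ratios were 0.34 and 0.62 for Gabpb1, a subunit of GABP, 0.33 and 0.47 for Nrf1, and 0.23 and 0.41 for Yy1. Gabpa, the DNA-binding subunit of GABP, had ratios of -0.01 and 0.21. These 4 were picked out after their values were seen. The median ratio of all compared genes was 0.21 and 0.24, and TMM scaling shifted it by -0.19 and -0.20. The wild-type ratio of Yy1 was thus close to that of the median gene.

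Markers of several cell types moved with the infarct comparison. The 14 contractile genes summed to 42689 and 22170 RPKM in wild-type and to 40576 and 14760 RPKM in Neil3-/- non-infarcted and infarcted tissue, and none was at 0. Their median log2(RPKM + 1) infarct ratios were -1.05 and -1.44, lower than the medians of complex I. Tcap, a titin-binding protein of the Z-disc, was 3.96-fold and 5.80-fold lower, Myh6, the alpha myosin heavy chain, 2.77-fold and 4.52-fold, Tnni3, cardiac troponin I, 2.77-fold and 4.41-fold, and Myl2, the ventricular myosin light chain, 2.70-fold and 4.31-fold lower. These 4 had the largest drops of the list. Summed complex I RPKM was 1.86-fold and 2.30-fold lower. Of the 14 contractile genes, 8 in wild type and 12 in Neil3-/- were lower by more than that, and 6 and 2 by less. The smallest drop was that of Tpm1, alpha-tropomyosin, with RPKM ratios of 0.669 and 0.506.

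The 8 neutrophil markers summed to 30.02 and 233 RPKM in wild-type and 25.6 and 270 RPKM in Neil3-/- non-infarcted and infarcted tissue, with Ngp at 0 reads in at least 1 library. The 10 macrophage markers summed to 636 and 1521 RPKM and to 1037 and 2113 RPKM, and the 8 fibroblast markers to 1956 and 2724 RPKM and to 2538 and 4206 RPKM. Among the genes with the largest ratios, S100a8 of neutrophils, Itgam of myeloid cells and Col1a1, a collagen of fibroblasts, had log2(RPKM + 1) infarct ratios of 2.95 and 3.82, 1.91 and 2.07, and 0.90 and 1.02. Endothelial markers summed to 269 and 419 RPKM and to 259 and 400.5 RPKM, and smooth muscle markers to 261 and 481 RPKM and to 305 and 652 RPKM. The stromal lists were mixed. Of the 8 fibroblast markers, 5 in wild type and 7 in Neil3-/- had an interval of the RPKM ratio above 1, while 3 and 1 had one below 1. The wild-type ratios below 1 were 0.811 for Dcn, 0.836 for Lum and 0.976 for Postn. Of the endothelial markers Kdr was lower in the infarct, at 0.886 and 0.821, and of the smooth muscle markers Myh11, at 0.563 and 0.669. All 10 macrophage markers and the 7 neutrophil markers compared had intervals above 1 in both genotypes. All 14 contractile markers had intervals below 1. Over all compared genes, 6488 of 12515 in wild type and 6729 of 12563 in Neil3-/- had an interval above 1. An interval below 1 was found for 22% and 24.1% of them. The wild-type fibroblast count above 1 thus lay near the all-gene share. In bulk tissue, fewer cardiomyocytes and less complex I RNA per cardiomyocyte cannot be told apart, and the part of cell composition in these ratios was not tested. Set against the contractile genes, summed complex I RPKM was 0.201 and 0.208 of theirs in wild type and 0.213 and 0.255 in Neil3-/-, so complex I was not lower in the infarct relative to contractile transcripts.

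Markers of atrial muscle differed between the non-infarcted libraries. They summed to 126 and 10.5 RPKM in wild-type and to 33.8 and 11.3 RPKM in Neil3-/- non-infarcted and infarcted tissue. Sln was at 0 reads in both infarcted libraries. Of the 4 markers found, 3 had an interval of the RPKM ratio below 1 in each genotype and 1 had one above 1. Myl4 was 28.3-fold and 6.95-fold lower, and Myl7 169-fold and 57.9-fold lower on 3 and 2 reads in the infarct. Nr2f2 was higher in the infarct, with log2(RPKM + 1) ratios of 0.35 and 0.72. Most of each infarcted sum was Nr2f2, at 7.998 RPKM in wild type and 8.849 RPKM in Neil3-/-. Adipocyte markers summed to 4.24 and 0.157 RPKM and to 3.58 and 1.55 RPKM, with Plin1 and Ucp1 at 0 in at least 1 library. Both sums were small beside the contractile sum, and their part in the complex I levels was not tested.

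In infarcted tissue all 37 complex I transcripts were lower in the library labelled Neil3-/- than in wild type, as 45.5% of all genes were. The summed ratio was 0.818 (0.809 to 0.828), the median ratio of the members 0.820, and the range ran from 0.678 to 0.959. The interval lay below 1 for 34 of 37 members, against 19.4% of 12464 compared genes, and Ndufb2, Ndufb3 and Ndufb6 were the 3 whose interval held 1. No member was 2-fold lower, nor were more than 0.241% of all genes. The differences were therefore small, shared by nearly all members, and well under the infarct differences.

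**Figure D4:**
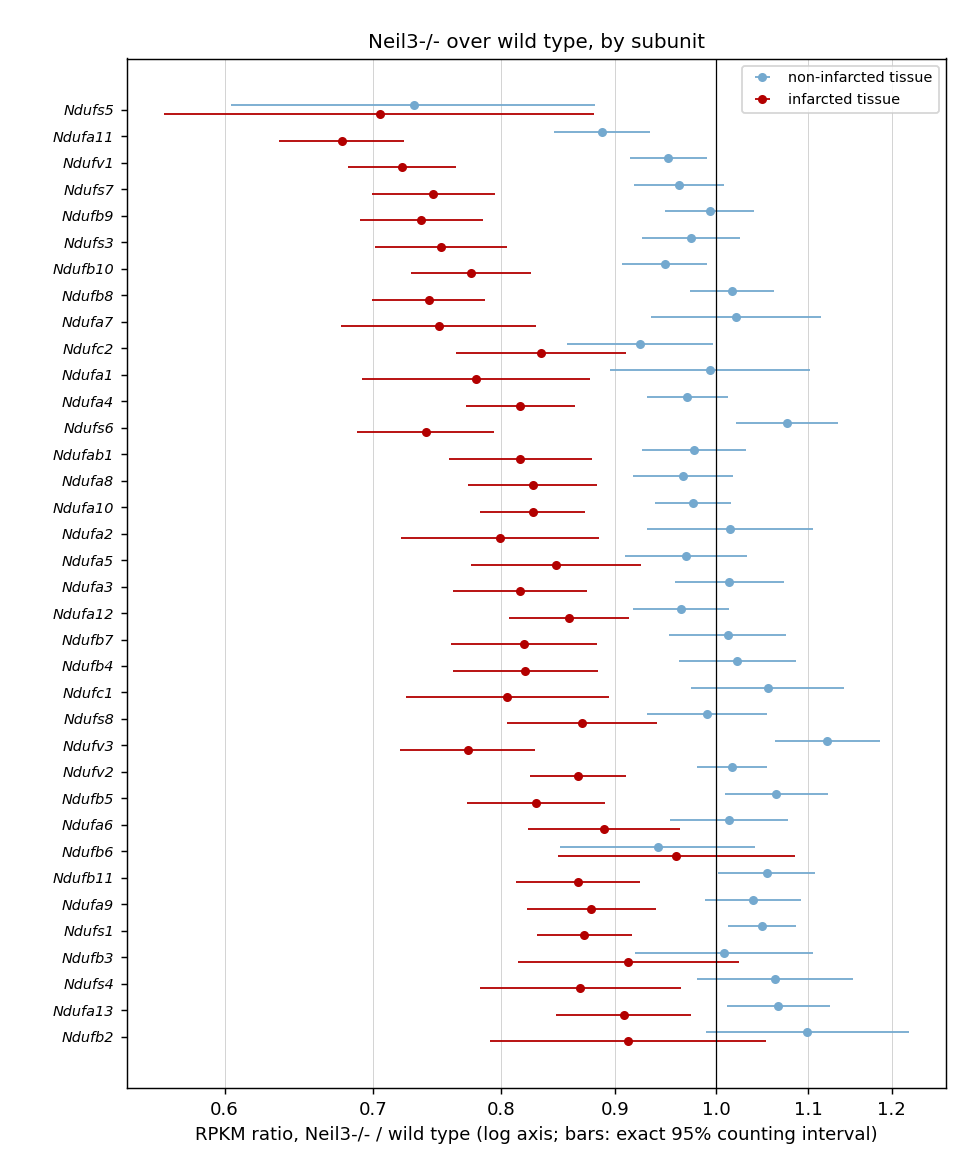
RPKM ratio of the library labelled Neil3-/- to the wild-type library for 36 subunits (log axis), in non-infarcted (light blue) and infarcted tissue (red); bars are exact 95% counting intervals and the vertical line marks 1. The infarcted points lie between 0.678 and 0.959, all left of 1, while the non-infarcted points lie on both sides, with Ndufs5 lowest at 0.730 and Ndufv3 highest of those plotted at 1.12.

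The lowest ratios in infarcted tissue were 0.678 for Ndufa11 (0.635 to 0.723), 0.705 for Ndufs5 (0.563 to 0.881), 0.721 for Ndufv1 (0.682 to 0.763), 0.736 for Ndufb9 (0.691 to 0.784) and 0.739 for Ndufs6 (0.689 to 0.794). Among the highest were 0.959 for Ndufb6 (0.848 to 1.09), 0.913 for Ndufb3 (0.814 to 1.02), 0.912 for Ndufb2 (0.791 to 1.05) and 0.908 for Ndufa13 (0.847 to 0.974). These genes mix core and accessory subunits of both arms. In non-infarcted tissue Ndufb2 was at 103 RPKM in wild type and 113 RPKM in Neil3-/-, and in infarcted tissue at 50.4 and 46.0 RPKM. Ndufa13 was at 142 and 152 RPKM in non-infarcted and 74.7 and 67.8 RPKM in infarcted tissue.

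The other mitochondrial lists and the contractile list leaned the same way in infarcted tissue, while several cell type lists leaned the other way. The median log2(RPKM + 1) ratio of the library labelled Neil3-/- to wild type was -0.28 for complex I and -0.29 for complexes II to V. It was -0.59 for the contractile genes, -0.14 for the mitochondrial ribosomal proteins, -0.08 for the assembly factors and 0.02 for all genes. Macrophage and fibroblast markers had medians of 0.42 and 0.61. Those of smooth muscle, neutrophil and endothelial markers were 0.53, 0.14 and -0.09. The lower complex I level in this library thus went with lower contractile and higher macrophage, fibroblast and smooth muscle levels. In non-infarcted tissue the macrophage and fibroblast medians were 0.61 and 0.24, while that of complex I was 0.02. The part of those cells in the complex I level was not tested.

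In non-infarcted tissue the libraries of both genotypes held nearly the same complex I level. The summed ratio of the library labelled Neil3-/- to wild type was 1.02 (1.008 to 1.025), the median of the members 1.01, and 17 members lay below 1 (46.3% of genes did) and 20 above it. No member was 2-fold lower (0.188% of genes) or 2-fold higher (0.254%). The interval lay below 1 for 5 members (10.8% of 12226 compared genes) and above 1 for 7 members (15.2% of genes). That balance turned with the scaling, to 6 below (12.9% of genes) and 4 above (13.1%) under TMM and to 6 below (12.3%) and 6 above (13.7%) under median-ratio scaling. The share of members with such intervals was close to that of all genes, so this comparison shows nothing about complex I as a group. The contractile sum, at 42689 and 40576 RPKM, differed little between these libraries, while macrophage markers were at 636 and 1037 RPKM. Gene by gene, 10 of the 14 contractile markers had an interval below 1 and 3 had one above 1. Their RPKM ratios ran from 0.883 for Tnnc1 to 1.09 for Myl3.

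The 5 members below 1 were Ndufs5 at 0.730 (0.604 to 0.882), Ndufa11 at 0.888 (0.845 to 0.934), Ndufc2 at 0.924 (0.857 to 0.996), Ndufb10 at 0.948 (0.907 to 0.991) and Ndufv1 at 0.952 (0.914 to 0.991). The same 5 lay below 1 with their intervals in infarcted tissue, where 34 of 37 members did (19.4% of genes). Their agreement between tissues therefore says little about these 5. Among the 7 above 1 were Ndufv3 at 1.12 (1.06 to 1.19), Ndufs6 at 1.08 (1.02 to 1.13), Ndufa13 at 1.07 (1.01 to 1.13), Ndufb5 at 1.06 (1.01 to 1.12), Ndufb11 at 1.05 (1.002 to 1.11) and Ndufs1 at 1.05 (1.01 to 1.09). All 7 lay below 1 with their intervals in infarcted tissue, a pattern shown by 1.81% of 12716 genes. As 34 of 37 members lay below 1 there, the pattern says little beyond that shift. Under TMM 4 of the 7 kept an interval above 1 outside the infarct. The intervals of Ndufa13, Ndufb5 and Ndufb11 then held 1, and under median-ratio scaling that of Ndufb11 did. Apart from Ndufs5, the ratios named here lay between 0.888 and 1.12, and how they compare with the spread between hearts was not tested.

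The infarct ratio was lower in the libraries labelled Neil3-/- than in wild type for 36 of 37 members. The infarct ratio of the summed reads in Neil3-/- was 0.805 of that in wild type (0.794 to 0.817, a normal approximation from the 4 read numbers). Over all genes the infarct ratio was lower in Neil3-/- for 50.3%. The members farthest from 1 in this ratio of ratios were Ndufs6 at 0.687, Ndufv3 at 0.688 and Ndufb8 at 0.729. The nearest were Ndufs5, by its own reads alone, at 0.965 and Ndufb6 at 1.02. With the reads of its pseudogene BC002163, described below, the infarct ratios of Ndufs5 were 0.597 in wild type and 0.510 in Neil3-/-. They lay farther apart than the 0.602 and 0.581 from its own reads. The infarct ratio was lower in Neil3-/- for 42 of 42 genes of complexes II to V and for 14 of 14 contractile genes. With 1 library in each group this difference between genotypes was not tested.

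Ndufs5 has a near-identical copy among the genes counted. The processed pseudogene BC002163 on chromosome 16 matches the Ndufs5 coding sequence at 317 of 319 aligned bases (99.4%), counted against the longest open reading frame of the Ndufs5 transcript. The stretch of 90 bases below, from the GENCODE M21 transcripts, is shown because it holds both differing bases, which are in capitals.
Ndufs5: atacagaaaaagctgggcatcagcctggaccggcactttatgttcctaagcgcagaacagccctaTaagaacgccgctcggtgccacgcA
BC002163: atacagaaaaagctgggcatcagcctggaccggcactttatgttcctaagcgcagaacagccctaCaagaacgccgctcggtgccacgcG

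BC002163 had 2 reads in wild-type non-infarcted and 0 in wild-type infarcted tissue, but 102 and 49 reads in the libraries labelled Neil3-/-. Ndufs5 itself had 274, 191, 192 and 142 reads in the same order of libraries. The reads of both genes summed to 276, 191, 294 and 191. In the summed reads the gap between genotypes seen for Ndufs5 alone was no longer there. The ratio of the libraries labelled Neil3-/- to wild type went from 0.730 (0.604 to 0.882) to 1.11 (0.939 to 1.31) in non-infarcted tissue, and from 0.705 (0.563 to 0.881) to 0.948 (0.772 to 1.17) in infarcted tissue. This sum was made after the reads of BC002163 had been seen. The ratio for BC002163 alone was 53.2 in non-infarcted tissue (14.3 to 445), and in infarcted tissue it was at least 15.5-fold higher in the library labelled Neil3-/- against a floor of 3 reads in the wild-type library.

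**Figure D5:**
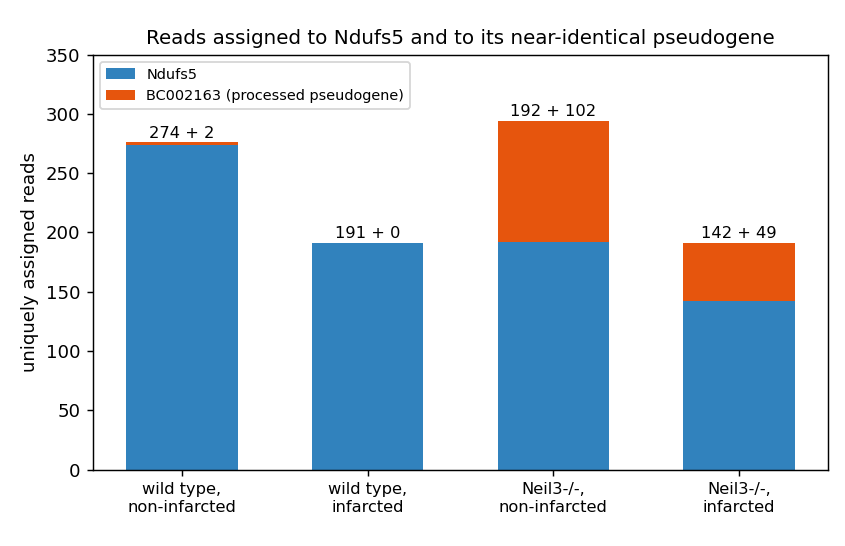
Uniquely assigned reads of Ndufs5 (blue) and of the processed pseudogene BC002163 (orange), stacked, in the 4 libraries, with both numbers above each bar. The pseudogene has 102 and 49 reads in the libraries labelled Neil3-/- and 2 and 0 in wild type, while the stacked totals are 276 and 294 in non-infarcted and 191 and 191 in infarcted tissue.

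The infarct ratio of Ndufs5 was affected less. The summed reads were 1.67-fold lower in wild-type (1.39 to 2.02) and 1.96-fold lower in Neil3-/- infarcted tissue (1.63 to 2.36), against 1.66-fold and 1.72-fold for Ndufs5 alone. The 1.72-fold was the smallest of the members in Neil3-/-, while the summed 1.96-fold lay above the 1.76-fold of Ndufa1. The deposited counts do not show which base each library carried. Whether the reads assigned to BC002163 came from Ndufs5 was not tested. Low read numbers and part coverage make Ndufs5 the least certain of the 37 members.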

How the data were processed

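Total RNA of 4 left ventricle libraries, 1 per group, was sequenced on an Illumina instrument. The deposited files give, per gene, the count of uniquely assigned reads, the RPKM and a coverage in percent, per the file headers, and list only genes with reads. The authors' RPKM was checked and equals reads divided by listed length and library total (largest relative difference 5.10e-15), so the deposited count and the deposited RPKM carry the same information. The coverage percent was deposited by the authors and was taken as the share of the listed length under reads. The submitters' processing notes name build mm9. No aligner, counting tool, strand setting or annotation is named in the sources used here. The listed length was the same in all files for every member.

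A gene absent from a file was given 0 reads. Totals were 14895578 (wild-type non-infarcted), 17260754 (wild-type infarcted), 14290921 (Neil3-/- non-infarcted) and 18200698 reads (Neil3-/- infarcted), at which 3 reads are an RPM (scaled read number) of 0.165 to 0.210. Genes at 1 RPKM in at least 1 library compared were compared by the log2 ratio of (RPKM + 1), with a pseudocount of 1 RPKM, and counted at 2-fold. RPKM ratios carry exact Clopper-Pearson 95% intervals. PCR copies are not independent molecules, so these cover counting error only. No test across genes was run, since a group has 1 library.

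The members and lists were chosen with earlier results of these data known. Every member is named except 1, which is counted and summed but not reported here. Values in all 4 libraries are given for the core subunits and for the 3 highest and 3 lowest in level, in genotype ratio and, among accessory subunits, in infarct ratio, and up to 4 genes with the largest ratio are named per other list. Alternatives were edgeR 4.0.16 TMM and DESeq2 1.42.0 median-ratio scaling factors (no count model was fitted), a total without ribosomal and small noncoding RNA, another pseudocount, fold and filter, other member sets, and, added after seeing the data, sums with BC002163 and leaving out members that share 50-mers. Promoter windows are RefSeq GRCm38.p6 and transcripts GENCODE M21, used for sequence only. Of the files' genes, 99.5% matched RefSeq by identifier. The scripts (Python 3.11.15, scipy 1.17.1, R 4.3.3) were tested on simulated data.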

Additional observations from a re-analysis of the deposited data

Results flagged for a closer look

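The ratio of the library labelled Neil3-/- to wild type lay above 1 in non-infarcted and below 1 in infarcted tissue, with both intervals clear of 1, for the 6 members named here. It was 1.12 and 0.772 for Ndufv3, and 1.08 and 0.739 for Ndufs6. For Ndufa13 it was 1.07 and 0.908, for Ndufb5 1.06 and 0.830, for Ndufb11 1.05 and 0.866, and for Ndufs1 1.05 and 0.872. Over all members the pattern held for 7, and for 1.81% of 12716 genes. It held for 4 members under TMM scaling (1.58% of genes) and for 6 under median-ratio scaling (1.91%). The non-infarcted interval held 1 for Ndufa13, Ndufb5 and Ndufb11 under TMM and for Ndufb11 under median-ratio scaling. In infarcted tissue 34 of 37 members had an interval below 1, so the pattern says little beyond that shift. Each tissue had 1 library per genotype, and the difference between tissues was not tested.

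Reads appeared in a gene outside the complex I subunits. BC002163, the pseudogene of Ndufs5, had 102 reads in the non-infarcted and 49 in the infarcted library labelled Neil3-/-, above the 3 reads that a count of 0 allows, and 2 and 0 reads in wild type.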

How the results depend on the processing

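Summed complex I reads kept the direction of both infarct comparisons and of the Neil3-/- to wild-type comparison in infarcted tissue under every alternative run. Under TMM, median-ratio scaling and the core subunits only, the infarct ratio was 0.450, 0.447 and 0.499 in wild type and 0.359, 0.354 and 0.398 in Neil3-/-. The Neil3-/- to wild-type ratio was 0.802, 0.796 and 0.834 in infarcted and 1.005, 1.008 and 1.05 in non-infarcted tissue. The median of the members gave 0.537 for the wild-type infarct ratio. The ratio of infarct ratios was 0.790 under median-ratio scaling and 0.818 from the medians. Members at least 2-fold lower in the wild-type infarct numbered 28 under TMM (6.14% of all genes), 29 under median-ratio scaling (6.24%) and 35 at 1.5-fold (9.56%), against 7 (3.6%). With the reads of BC002163, the Neil3-/- to wild-type ratio of Ndufs5 in non-infarcted tissue went from 0.730 to 1.11. Its interval (0.939 to 1.31) then held 1, so the difference was gone rather than turned round. The cause of these shifts was not tested, apart from what each alternative changes by construction.

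Of the values for single members under alternatives, 300 stayed within their counting interval and 145 moved beyond it. Only 1, that of Ndufs5 with BC002163 in non-infarcted tissue, changed to the other side of 1, with an interval that held 1. No paired analysis was possible because each group has 1 library, and leaving out a replicate would leave none. The interval of a member covers counting error only, and 142 to 274 reads limit Ndufs5 most.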
